A study of Mus musculus with 8 samples.

Results

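The 10 genes that mark activated fibroblasts in tumors were followed across 8 mouse mammary tumors: Fap, Lrrc15, Pdpn, Thy1, Grem1, Adam12, Srpx2, Cpxm2, Cdh11 and S100a4. They were chosen by name, with earlier results of these tumors known. Each is read from the probe set that lists this gene alone and has the highest mean over the 8 tumors. All 10 members were found among the 19937 named genes of the array, and each had exactly 1 such probe set, so the mean decided nothing between probe sets. The tumors arose over 18 days from cells of the 4T1 line, a mammary carcinoma of the mouse, in the fourth mammary gland of BALB/c hosts. In 4 of them, called preirradiated, the gland was given a single X-ray dose of 20 Gy ahead of implantation, and in 4, called nonirradiated, it was not. Nothing in the labels states that the tumors were taken from different mice, so the p-values measure the spread between these tumors, which may be technical in part.

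Fibroblasts lay down the collagen-rich matrix between epithelial cells. In wounds and carcinomas they become activated, often under TGF-beta, and then display surface proteases and adhesion molecules that resting fibroblasts carry little of. None of these genes belongs to fibroblasts alone. Pdpn also marks lymphatic endothelium, Thy1 marks T cells in the mouse, and S100a4 is made by macrophages and by invasive carcinoma cells. Signals are robust multi-array average (RMA) values from whole tumor tissue on the log2 scale, where a difference is the logarithm of a fold change. In such bulk tissue, more cells of a type and more RNA per cell cannot be told apart, here and throughout.

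Of the 10 genes 9 were higher on average in preirradiated tumors and S100a4 was not, where 47.4% of named genes had a difference above 0. The median difference was 0.48 on the log2 scale, or 1.40-fold, beside a median of -0.004 over all named genes. Srpx2, Pdpn, Lrrc15, Grem1, Cpxm2, Adam12 and Cdh11 passed the study's own filter, by 1.39-fold to 1.66-fold. This filter asks for an unadjusted p of at most 0.05, a mean signal of 4.0 or more and a log2 difference of 0.4 or more in either direction, and 0.346% of named genes passed it as higher. For Lrrc15, Grem1, Adam12, Srpx2 and Cpxm2 the lowest preirradiated tumor exceeded the highest nonirradiated one, which held for 1.70% of named genes, and the reverse order held for 1.95%. No member passed the limma test at a Benjamini-Hochberg adjusted p of 0.05 over all 34738 probe sets tested. The smallest adjusted p among them was 0.595, and 0% of all probe sets passed, against 5.80% at an unadjusted p under 0.05. Since the genes were put forward with this comparison known, these counts describe them and are no test of the group.

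**Figure D1:**
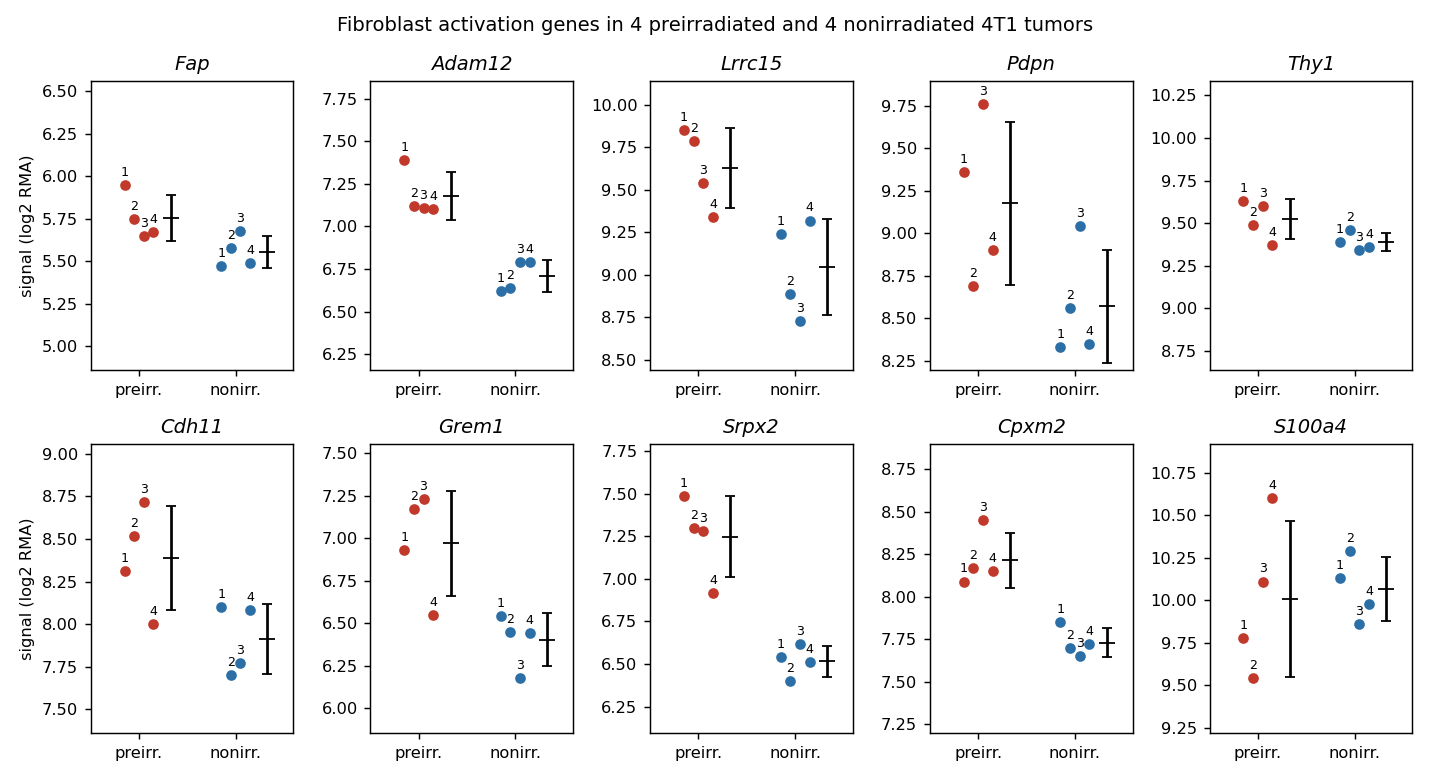
Signals (log2 RMA) of the 10 genes in 4 preirradiated tumors (red, left) and 4 nonirradiated tumors (blue, right), 1 point per tumor with its number, and the mean ± SD in black; every panel spans the same range of log2 units. The 2 clouds are apart for Adam12, Srpx2 and Cpxm2, nearly touch for Lrrc15 and Grem1, and overlap for the other genes.

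Fap and Adam12 encode proteases of the cell surface. Fap, fibroblast activation protein, is a serine protease that cuts after proline and is scarce in most resting tissues. Its signal was 5.95, 5.75, 5.65 and 5.67 in preirradiated tumors 1 to 4, against 5.47, 5.58, 5.68 and 5.49 in nonirradiated tumors 1 to 4. Preirradiated tumors 1 and 2 lay above all nonirradiated tumors, while tumors 3 and 4 lay inside their range. The difference was 0.20 (SE 0.0767, adjusted p = 0.822), and all these signals lie below the median of all probe sets, 5.97, where RMA compresses differences. Adam12, a membrane-anchored disintegrin and metalloprotease that sheds growth factors and cuts their binding proteins, showed a clearer separation. It had 7.39, 7.12, 7.11 and 7.10 in preirradiated tumors and 6.62, 6.64, 6.79 and 6.79 in nonirradiated tumors. Every preirradiated tumor lay at least 0.31 above the highest nonirradiated tumor, with tumor 1 standing above the other preirradiated tumors. Means were 7.18 ± 0.14 in preirradiated and 6.71 ± 0.09 in nonirradiated tumors (SD, n = 4 each), a 1.39-fold difference (log2 0.47, SE 0.0778, limma adjusted p = 0.595).

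The close relatives of these proteases gave smaller differences or none past the study's filter. Adam19, another metalloprotease of the Adam family, averaged 8.40 ± 0.15 in preirradiated and 8.10 ± 0.14 in nonirradiated tumors (SD, n = 4 each), and the groups overlapped. Adam33 averaged 7.50 ± 0.11 in preirradiated and 7.57 ± 0.08 in nonirradiated tumors (SD, n = 4 each). Dpp4, the dipeptidyl peptidase most closely related to Fap, had 5.54 ± 0.10 in preirradiated and 5.55 ± 0.08 in nonirradiated tumors (SD, n = 4 each), and Dpp8 differed by 0.01 (SE 0.0663). The Dpp4 signals, like those of Fap, lie below the median of all probe sets. Whether a member's difference exceeds that of its relative was not tested.

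Adhesion and surface glycoproteins form the next group. Lrrc15 is a leucine-rich repeat membrane protein that TGF-beta induces in fibroblasts. It had 9.85, 9.79, 9.54 and 9.34 in preirradiated tumors 1 to 4 and 9.24, 8.89, 8.73 and 9.32 in nonirradiated tumors 1 to 4. The groups did not overlap, but preirradiated tumor 4 cleared nonirradiated tumor 4 by no more than 0.02. Means of 9.63 ± 0.23 in preirradiated and 9.05 ± 0.28 in nonirradiated tumors (SD, n = 4 each) differed by 0.58 (SE 0.16, limma adjusted p = 0.720), or 1.5-fold. Of other leucine-rich repeat proteins, Lrrc17 differed by 0.19 (SE 0.11) and Lrrc32, which holds latent TGF-beta at the cell surface, by 0.20 (SE 0.20), both with overlap. Pdpn, podoplanin, is a mucin-type glycoprotein that binds the platelet receptor CLEC-2. Its values were 9.36, 8.69, 9.76 and 8.90 in preirradiated tumors and 8.33, 8.56, 9.04 and 8.35 in nonirradiated tumors. Preirradiated tumors 1 and 3 were high, and tumors 2 and 4 lay within the nonirradiated range. The mean difference was 0.61 (SE 0.25, limma adjusted p = 0.840), and it was 0.23 without preirradiated tumors 1 and 3.

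Thy1, the GPI-anchored surface protein CD90, differed little. Preirradiated tumors had 9.63, 9.49, 9.60 and 9.37, against 9.39, 9.46, 9.34 and 9.36 in nonirradiated tumors. Preirradiated tumors 1 to 3 lay above the nonirradiated range and tumor 4 within it, for a difference of 0.13 (SE 0.0620, limma adjusted p = 0.859), or 0.04 without preirradiated tumors 1 and 3. T cell markers, which share Thy1 in the mouse, averaged lower, with all 6 measured differences below 0, 0 past the study's filter and the groups overlapping for each. The list had a mean of 6.02 to 6.70 in preirradiated and 6.52 to 6.93 in nonirradiated tumors. It lay -0.67 and -0.42 from the nonirradiated mean in preirradiated tumors 1 and 4, and 0.01 and -0.02 from it in tumors 2 and 3. Cd3e and Cd3g, chains of the T cell receptor complex, differed by -0.54 (SE 0.28) and -0.62 (SE 0.36), and the other 4 by -0.27 to -0.06. Their part in the Thy1 value was not tested. Lymphatic markers, which share Pdpn, had a list mean of 5.73 to 5.94 in preirradiated and 5.70 to 5.96 in nonirradiated tumors. Their median difference over 5 genes was 0.04. Prox1, the regulator of lymphatic identity, was at 5.19 ± 0.03 in preirradiated and 5.15 ± 0.04 in nonirradiated tumors (SD, n = 4 each). Only 2 of the 5 genes had a mean above the median of all probe sets, 5.97, and RMA compresses differences at low signal. The part of lymphatic cells in the Pdpn value was not tested.

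Cdh11, the mesenchymal cadherin of fibroblasts and bone-forming cells, had 8.31, 8.52, 8.72 and 8.0 in preirradiated tumors, against 8.10, 7.70, 7.77 and 8.08 in nonirradiated tumors. Preirradiated tumor 4 lay within the nonirradiated range and the other preirradiated tumors above it. The difference was 0.47 (SE 0.16, limma adjusted p = 0.809), or 1.39-fold. Beside this probe set, 3 others list Cdh11 together with 2 clone-named transcripts, and they differed by 0.18, 0.32 and 0.11, none past the study's filter. What share of their signal is Cdh11 is unknown. Cdh2, N-cadherin, had 4.95 ± 0.07 in preirradiated and 4.88 ± 0.07 in nonirradiated tumors (SD, n = 4 each), below the median of all probe sets, 5.97. The epithelial cadherin Cdh1 averaged 9.90 ± 0.26 in preirradiated and 9.61 ± 0.18 in nonirradiated tumors (SD, n = 4 each), with overlap.

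Srpx2, Grem1 and Cpxm2 encode secreted proteins. Srpx2, a sushi-repeat protein whose human form binds the urokinase receptor, was at 7.49, 7.30, 7.28 and 6.92 in preirradiated tumors 1 to 4, against 6.54, 6.40, 6.62 and 6.51 in nonirradiated tumors 1 to 4. All preirradiated tumors were at least 0.29 above the highest nonirradiated tumor. Means of 7.25 ± 0.24 in preirradiated and 6.52 ± 0.09 in nonirradiated tumors (SD, n = 4 each) differed by 0.73 (SE 0.11, limma adjusted p = 0.595), or 1.66-fold. Its relative Srpx had a smaller difference of 0.18 (SE 0.0563), also without overlap, with signals of 5.64 to 5.81 in preirradiated and 5.43 to 5.62 in nonirradiated tumors. All these Srpx signals lie below the median of all probe sets, 5.97, where RMA compresses differences. Grem1, gremlin 1, binds and blocks bone morphogenetic proteins. Its signals were 6.93, 7.17, 7.23 and 6.55 in preirradiated tumors and 6.54, 6.45, 6.18 and 6.44 in nonirradiated tumors. Tumor 4 of the preirradiated group exceeded the highest nonirradiated tumor by no more than 0.01, and the other preirradiated tumors stood well clear. The difference was 0.57 (SE 0.15, limma adjusted p = 0.678), or 1.48-fold.

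Cpxm2, a secreted carboxypeptidase-like protein, was 8.09, 8.17, 8.45 and 8.15 in preirradiated tumors and 7.85, 7.70, 7.65 and 7.72 in nonirradiated tumors. The lowest preirradiated tumor lay 0.25 above the highest nonirradiated tumor, and the mean difference was 0.49 (SE 0.0822, limma adjusted p = 0.595). The related Cpxm1 differed by a similar 0.46 with a wider spread, at 7.63 ± 0.45 in preirradiated and 7.17 ± 0.13 in nonirradiated tumors (SD, n = 4 each), and the groups overlapped.

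S100a4, a small calcium-binding protein of motile cells that is often used as a fibroblast marker, did not follow the others. Preirradiated tumors had 9.78, 9.54, 10.11 and 10.60, against 10.13, 10.29, 9.86 and 9.98 in nonirradiated tumors. Preirradiated tumor 4 was the highest of all 8 and preirradiated tumor 2 the lowest, so the preirradiated group enclosed the nonirradiated one. The difference was -0.06 (SE 0.21, limma adjusted p = 0.993). S100a6 and S100a10, of the same protein family, differed by 0.07 (SE 0.0984) and -0.01 (SE 0.0421), and both were also highest in preirradiated tumor 4 and lowest in preirradiated tumor 2 within their group.

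The set of RefSeq promoter windows used here runs from 250 bases before to 50 after a gene's start (build GRCm38.p6). It held a window for 6 of the 10 genes and none for Fap, Thy1, Adam12 and Cdh11. The 4 windows shown are those with a match to 1 of 4 motifs. They belong to Lrrc15, Srpx2 and Cpxm2, whose groups did not overlap, and to S100a4, whose groups did. Each is read 5′ to 3′ on the strand of its gene: Lrrc15 at chr16:30283205-30283504 (minus strand), Srpx2 at chrX:133908175-133908474 (plus), Cpxm2 at chr7:132154692-132154991 (minus) and S100a4 at chr3:90603520-90603819 (plus). Capitals mark matches on either strand to an AP-1 site (TGANTCA), a SMAD-type box (CAGACA), a TEAD site (GGAATG) or a TATA box (TATAAA).
Lrrc15: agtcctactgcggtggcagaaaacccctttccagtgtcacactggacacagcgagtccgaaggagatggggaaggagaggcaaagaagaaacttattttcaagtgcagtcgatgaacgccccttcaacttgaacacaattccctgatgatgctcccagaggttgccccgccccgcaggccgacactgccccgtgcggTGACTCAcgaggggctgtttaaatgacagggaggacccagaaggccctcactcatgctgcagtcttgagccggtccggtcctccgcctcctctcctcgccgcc
Srpx2: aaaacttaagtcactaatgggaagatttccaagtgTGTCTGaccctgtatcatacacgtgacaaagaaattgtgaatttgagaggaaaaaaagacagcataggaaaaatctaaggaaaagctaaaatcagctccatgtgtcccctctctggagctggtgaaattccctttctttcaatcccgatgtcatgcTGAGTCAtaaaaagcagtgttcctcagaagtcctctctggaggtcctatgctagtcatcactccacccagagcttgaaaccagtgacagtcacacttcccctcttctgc
Cpxm2: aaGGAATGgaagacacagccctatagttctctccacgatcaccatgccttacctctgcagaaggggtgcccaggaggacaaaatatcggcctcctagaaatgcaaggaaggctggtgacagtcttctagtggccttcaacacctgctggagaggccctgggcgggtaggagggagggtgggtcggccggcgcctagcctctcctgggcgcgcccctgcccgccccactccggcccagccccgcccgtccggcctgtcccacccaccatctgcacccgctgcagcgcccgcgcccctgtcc
S100a4: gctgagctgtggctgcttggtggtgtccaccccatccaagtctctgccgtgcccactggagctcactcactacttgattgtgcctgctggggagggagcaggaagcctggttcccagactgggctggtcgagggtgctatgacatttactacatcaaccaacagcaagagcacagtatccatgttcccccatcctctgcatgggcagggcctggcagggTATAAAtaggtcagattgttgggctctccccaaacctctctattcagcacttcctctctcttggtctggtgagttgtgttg
The letters of an AP-1 site begin 53 bases before the start of Lrrc15 and 59 bases before that of Srpx2. This motif was in 2 of the 6 windows and in 7.81% of all 32851 windows. The SMAD-type box, held by 21.0% of all windows, was found in that of Srpx2, and the TEAD letters, held by 14.7%, in that of Cpxm2. The TATA letters, held by 13.6%, begin 31 bases before the start of S100a4. The windows of Pdpn, whose groups overlapped, and Grem1, whose groups did not, hold none of these letters. No matches overlapped, and they describe letters in a window, not bound factors.

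Preirradiated tumors were not alike in these genes. Median deviations of the 10 members from their nonirradiated means were 0.46, 0.43, 0.61 and 0.31 in preirradiated tumors 1 to 4, and -0.06 to 0.04 in nonirradiated tumors. Tumor 1 had the highest preirradiated signal of 5 members and tumor 3 that of 4. Tumor 4 had the lowest signal of 6 members and the highest of S100a4. Among the members, the profiles of Fap and Thy1 were closest to each other, with a root mean square difference of 0.109 over the 8 tumors after centring, followed by Grem1 and Cdh11 at 0.125. Srpx2 and S100a4 were farthest apart, at 0.593. These distances are descriptions, and genes with small changes are close by construction.

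**Figure D2:**
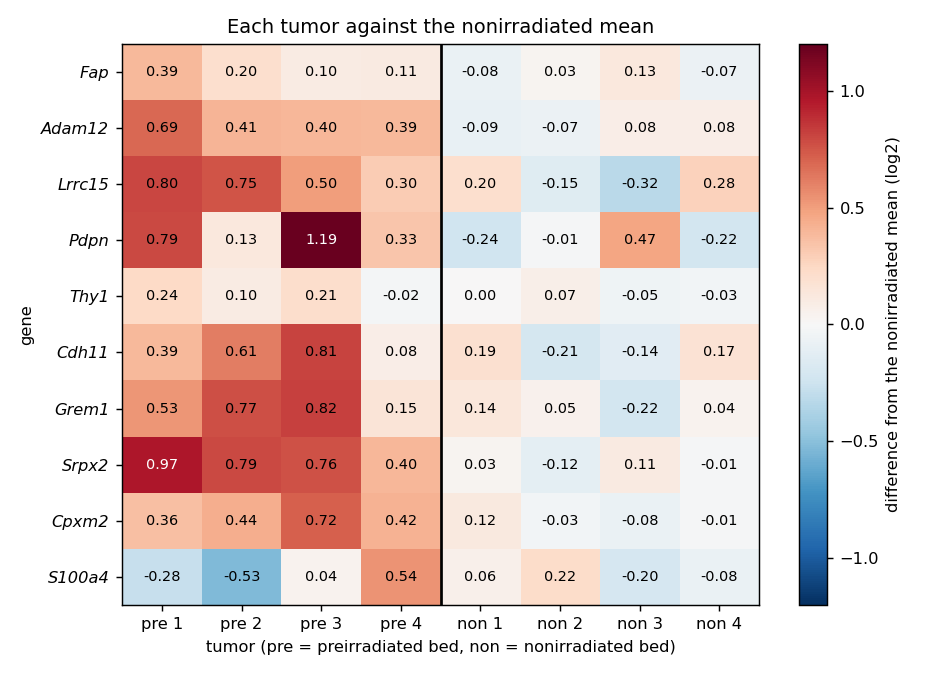
Each cell gives the log2 difference of a tumor from the nonirradiated mean of that gene, with preirradiated tumors 1 to 4 left of the line and nonirradiated tumors 1 to 4 right of it. Pdpn peaks in preirradiated tumor 3 (1.19), Srpx2 in preirradiated tumor 1 (0.97), and S100a4 runs from -0.53 to 0.54 among preirradiated tumors.

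Preirradiated tumors 1 and 3 also had high signals of skeletal muscle genes, and their part in the values of the 10 genes was not tested beyond leaving these tumors out and a covariate. The mean of 12 muscle markers lay 2.90 and 4.32 above the nonirradiated mean in them, and -0.05 and 0.10 from it in tumors 2 and 4. Adipocyte markers (7 measured) lay 1.63 above it in preirradiated tumor 1 and at most 0.18 above it in the others. Without tumors 1 and 3 the median difference of the 10 genes was 0.37. Lrrc15, Grem1, Adam12, Srpx2 and Cpxm2 still passed the study's filter, with differences of 0.52, 0.46, 0.40, 0.59 and 0.43. That their groups still did not overlap follows by construction, since removing tumors cannot bring overlap about. Pdpn (0.23) and Cdh11 (0.34) no longer passed.

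General fibroblast genes were higher too. Of 8 fibroblast markers 7 were higher, with a median difference of 0.38, and Col1a1 and Col3a1, chains of the fibrillar collagens, passed the study's filter. Col1a1 averaged 11.84 ± 0.17 in preirradiated and 11.35 ± 0.10 in nonirradiated tumors (SD, n = 4 each), and Col3a1 10.04 ± 0.21 in preirradiated and 9.43 ± 0.21 in nonirradiated tumors. Pdgfra, the growth factor receptor that marks most fibroblasts, was the exception, with 9.79 ± 0.08 in preirradiated and 9.90 ± 0.14 in nonirradiated tumors (named here after its values were seen). The list mean was 9.80, 9.44, 9.84 and 9.48 in preirradiated tumors and 9.10, 9.41, 9.41 and 9.39 in nonirradiated tumors, so that tumors 1 and 3 were high again.

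Each activation gene was also set against this mean within each tumor. By construction this lowers every group difference by the same 0.31, the mean difference of the 8 markers, and only the spread between tumors can change from gene to gene. The median difference was then 0.17, Srpx2 alone passed the study's filter, with a difference of 0.42, and 0 members had groups without overlap. Srpx2 minus the fibroblast mean was -2.31, -2.13, -2.56 and -2.56 in preirradiated tumors, against -2.56, -3.01, -2.78 and -2.88 in nonirradiated tumors. Adam12 had 3 of 4 preirradiated tumors above all nonirradiated tumors on this scale, with a difference of 0.16. Fap (-0.11), Thy1 (-0.18) and S100a4 (-0.37) were below 0 on this scale, as any gene with a difference under 0.31 must be. This comparison was added after the data had been seen, and it shows unequal or equal change among genes, not which of them changed.

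**Figure D3:**
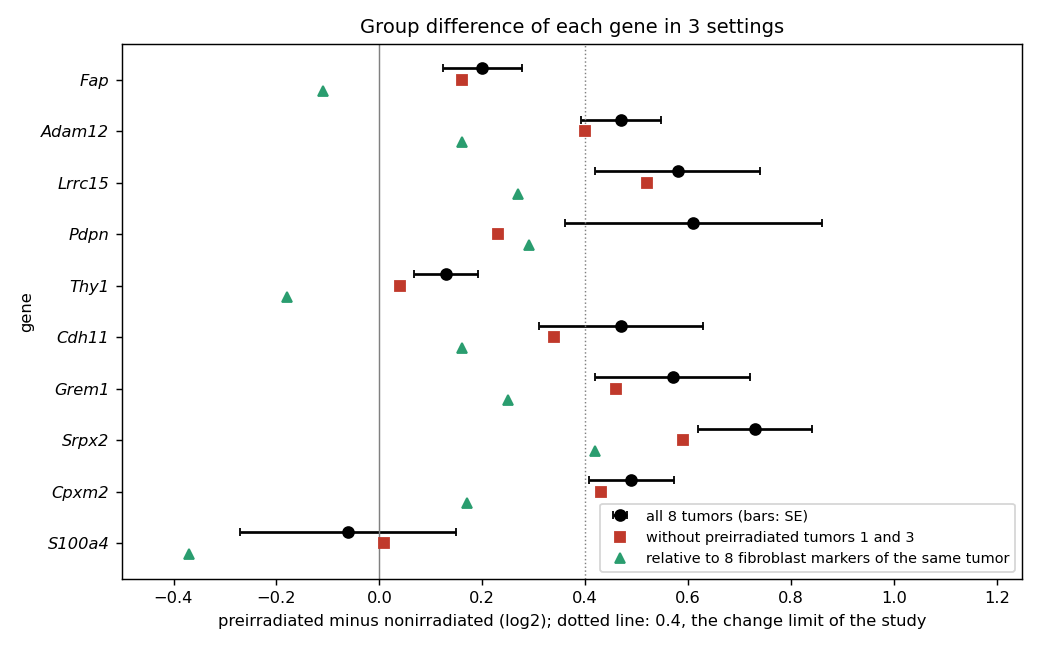
Preirradiated minus nonirradiated (log2) for each gene with all 8 tumors (black, bars are SE), without preirradiated tumors 1 and 3 (red squares), and after subtracting the mean of 8 fibroblast markers in each tumor (green triangles). The green values lie 0.31 below the black ones by construction, so the order of the genes is the same in both, and without preirradiated tumors 1 and 3 Srpx2 again has the highest value.

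Other states of fibroblasts were compared by lists. Of 10 genes of the myofibroblast type, the contractile and matrix-making state, 8 were higher with a median difference of 0.37. Acta2 and Tagln, of the contractile apparatus, and Tnc, Thbs2 and Col12a1, of the matrix, passed the study's filter. Acta2 was 10.59, 10.54, 10.47 and 10.27 in preirradiated tumors and 10.10, 9.91, 10.05 and 10.11 in nonirradiated tumors, with no overlap. Nor did Tagln (0.47), Tnc (0.63), Thbs2 (0.50) or Col12a1 (0.44) overlap between groups. The rest of this list missed the filter and is named after its values were seen. Postn (0.32) and Cthrc1 (0.30) did not overlap, while Itga11 (0.10), Col11a1 (-0.03) and Mmp11 (-0.09) did. Of resting fibroblast genes 6 of 6 measured had a difference above 0, with a median of 0.31. Their list mean lay 0.61 and 0.52 above the nonirradiated mean in the muscle-high preirradiated tumors 1 and 3, but 0.07 above it in tumor 2 and level with it in tumor 4. Of these Pi16, a marker of resting adventitial fibroblasts, passed the filter at 6.60 ± 0.33 in preirradiated and 6.14 ± 0.27 in nonirradiated tumors (SD, n = 4 each). Dpt, dermatopontin, was 7.25 in preirradiated tumor 1 and between 5.45 and 6.48 in all others.

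Inflammatory-type fibroblast genes had differences near 0 on balance. Of 9 measured 5 were higher, with a median difference of 0.05, and 0 passed the study's filter. Il11, a cytokine related to interleukin 6, had 6.15 to 6.29 in preirradiated and 5.87 to 6.01 in nonirradiated tumors, a difference of 0.25 (SE 0.0466) without overlap. Cxcl12, a chemokine of stromal cells, averaged 6.23 ± 0.24 in preirradiated and 6.03 ± 0.15 in nonirradiated tumors (SD, n = 4 each). The 4 lower genes, named after their values were seen, were Ccl2 (-0.25), Saa3 (-0.17), Cxcl1 (-0.05) and Il6 (-0.00), all with overlap. Whether the lists differ from each other was not tested.

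**Figure D4:**
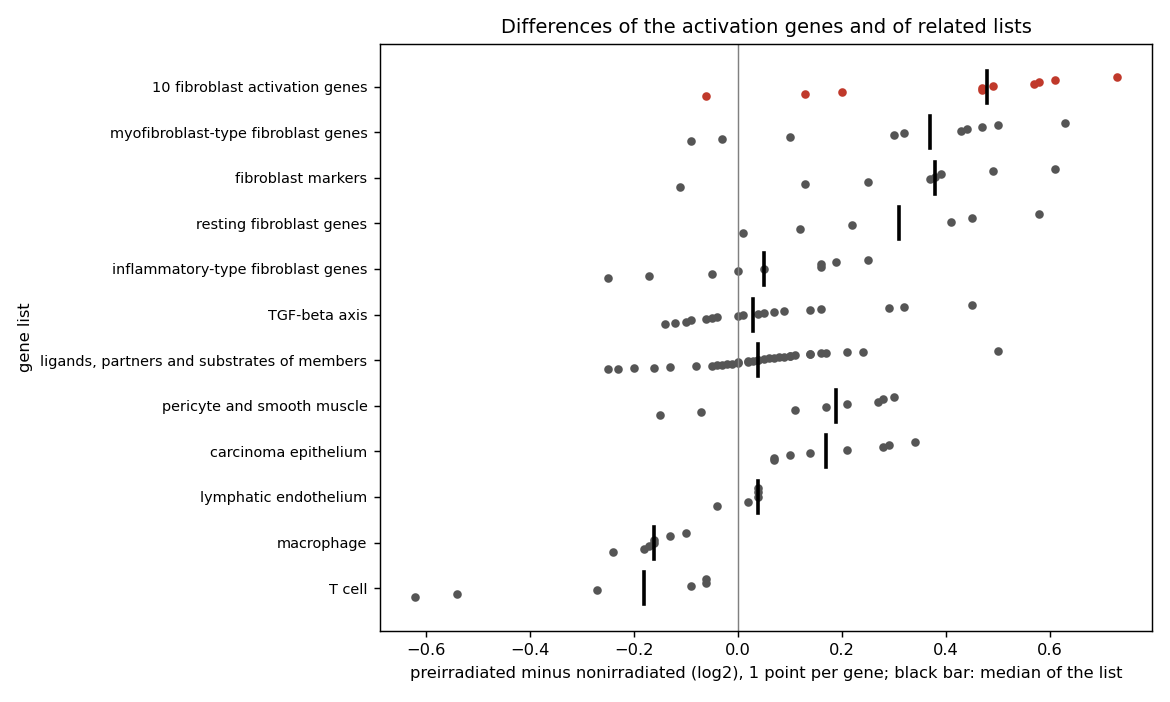
Preirradiated minus nonirradiated (log2), 1 point per gene, for the 10 activation genes (red) and 11 other lists (grey; skeletal muscle and adipocyte markers are not drawn), with a black bar at each median. Medians are 0.48 for the activation genes, 0.38 for fibroblast markers, 0.37 for myofibroblast-type genes, 0.31 for resting fibroblast genes and -0.18 for T cell markers.

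The TGF-beta list pools ligands, receptors and SMADs with genes that respond to them, such as Postn. As a whole it showed no common direction at the level of transcripts. Of 18 measured 10 were higher and 8 lower, with a median of 0.03, and 0 passed the study's filter. Postn, periostin, a matrix protein induced by TGF-beta, had 11.15 to 11.63 in preirradiated and 10.93 to 11.12 in nonirradiated tumors, a difference of 0.32 (SE 0.0987). Ltbp1, which stores latent TGF-beta in the matrix, was lower by a narrow margin, at 10.99 to 11.04 in preirradiated and 11.09 to 11.16 in nonirradiated tumors. The ligands Tgfb1, Tgfb2 and Tgfb3, named after their values were seen, differed by -0.09, 0.07 and -0.12. Among the 10 higher genes, also named after their values were seen, were Inhba (0.45), Ccn2 (0.29), Tgfbi (0.16), Smad7 (0.14) and Skil (0.09), each with overlap. The 8 lower genes were Tgfb1, Tgfb3, Tgfbr1, Tgfbr2, Tgfbr3, Ltbp1, Ltbp2 and Smad4, so the median of the list hides this split. Whether the parts of the list differ was not tested.

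Partners, ligands and substrates of the 10 proteins likewise had a median difference of 0.04, with 21 of 33 higher, 12 lower and 0 past the study's filter. Itgam, an integrin chain of myeloid cells that binds THY1, was lower without overlap, at 10.03 to 10.13 in preirradiated and 10.21 to 10.34 in nonirradiated tumors (difference -0.20, SE 0.0414). All 7 macrophage markers were lower as well, with a median of -0.16. Adamts4, a proteoglycan-cutting protease that human SRPX2 binds, was 8.61 to 8.86 in preirradiated and 8.30 to 8.59 in nonirradiated tumors. The following partners were named after their values were seen. Of the proteins that gremlin 1 blocks, Bmp2 differed by -0.23 (SE 0.16), Bmp4 by 0.14 (SE 0.10) and Bmp7 by 0.06 (SE 0.11), all with overlap. Plaur, the urokinase receptor to which human SRPX2 binds, differed by -0.05 (SE 0.0891). Of substrates of ADAM12, Igfbp3 differed by 0.16 (SE 0.12), Igfbp5 by 0.50 (SE 0.23) and Hbegf by 0.21 (SE 0.0735), and the groups overlapped for each.

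The search for like patterns covered 17042 named genes and took the root mean square difference of centred profiles over the 8 tumors. Nearest to the mean profile of the 10 genes were Zfhx4 (0.054), a zinc finger homeobox factor, Rbms3 (0.066), an RNA-binding protein, and Mrc2 (0.076), a collagen uptake receptor. Col12a1 (0.078), Itm2a (0.079), Fgf2 (0.082), Acta2 (0.083) and Atp8b1 (0.086) followed, where the mean profile itself has a root mean square of 0.225. Zfhx4 was 6.16, 6.03, 6.26 and 5.89 in preirradiated tumors and 5.83, 5.70, 5.74 and 5.75 in nonirradiated tumors. The groups did not overlap for any of these 8 genes, nor for the mean profile they were matched to.

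Single members had neighbours of their own. Adam12 was nearest to Col14a1 (0.058), a collagen that associates with fibrils, and Vgll3 (0.077), a cofactor of TEAD factors. Srpx2 was nearest to Prokr2 (0.085) and Tnc (0.091). Lrrc15 was nearest to Olfml3 (0.142) and Fam167a (0.155), Grem1 to Ctsk (0.137) and Stra6 (0.143), and Cdh11 to Cxcl14 (0.156) and Mef2c (0.162). Cpxm2 had Tagln (0.120) and Zfhx4 (0.122) closest, Pdpn had Igfbp5 (0.178) and Mss51 (0.192), Thy1 had Nova1 (0.032) and Ebf3 (0.038), and Fap had Duoxa1 (0.049) and Htr1b (0.053). These distances cannot be ranked across members, since a gene that varies little is close to many. The root mean square of the profile itself was 0.103 for Thy1 and 0.143 for Fap, against 0.467 for Pdpn. S100a4 was nearest to Uqcr11 (0.110) and Ndufa1 (0.113), both subunits of the mitochondrial respiratory chain. Uqcr11 had 9.56, 9.45, 9.75 and 10.28 in preirradiated tumors and 9.89, 10.06, 9.80 and 9.59 in nonirradiated tumors. That preirradiated tumor 4 is highest and tumor 2 lowest follows from its choice by likeness to S100a4.

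As a check of the tissue, all 8 markers of carcinoma epithelium had means above the median of all probe sets, the lowest at 7.32. All 8 were higher in preirradiated tumors, with a median difference of 0.17, and 0 passed the study's filter. Their list mean lay 0.48 above the nonirradiated mean in preirradiated tumor 2, and 0.19, -0.03 and 0.12 from it in tumors 1, 3 and 4. Cldn7, a tight junction protein, had 8.48 to 8.87 in preirradiated and 8.24 to 8.64 in nonirradiated tumors. All 8 fibroblast markers also had means above that median, the lowest at 7.44. Of 8 pericyte and smooth muscle markers 6 were higher, with a median of 0.19, and 0 passed the study's filter. Myh11 (0.17) and Cnn1 (0.28), of smooth muscle contraction, were higher. The rest of the list is named after its values were seen and had no common direction. Cspg4 (0.30), Pdgfrb (0.27), Abcc9 (0.21) and Notch3 (0.11) were higher, and Rgs5 (-0.15) and Kcnj8 (-0.07) were lower, all with overlap. This list mean lay 0.41, 0.17, 0.03 and -0.06 from the nonirradiated mean in preirradiated tumors 1 to 4, with tumor 1 apart. Their parts in the values of the 10 genes were not tested.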

How the data were processed

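RNA of 8 tumors was hybridised to Affymetrix arrays (Mouse Gene 1.0 ST), 1 array per tumor. The authors deposited log2 expression values per probe set, made by RMA with the affy package of Bioconductor 2.4 per the series' design text (affy and R 2.15.3 per the submitters' processing notes). RMA makes arrays alike in distribution and compresses differences near background. The probe set definition is not stated in the sources used here. For arrays, the number of tumors limits the precision.

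Of 34760 probe sets 34738 had a mean of at least 4.0 and were fitted with limma 3.58.1 in R 4.3.3 (lmFit, eBayes, two-sided), preirradiated minus nonirradiated, as the design text describes, with Benjamini-Hochberg adjustment over all of them. Groups came from the titles. Genes were named by the platform annotation: 21640 probe sets list 1 symbol, 1321 several and 11799 none. Some listed genes were not analysed here. Promoters are RefSeq's, build GRCm38.p6.

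The members, gene lists and tests were chosen with earlier results of these data known. Named list genes are those past the study's filter, or the 2 with the smallest p where fewer than 2 passed. The fit was tested on simulated data. Alternatives covered the expression limit, variance model, normalization, array weights, replicate number, features, thresholds, each tumor left out, muscle-high tumors and a muscle covariate. A comparison within each tumor to fibroblast markers was added after the data were seen. Same-numbered tumors did not deviate together (correlations of -0.29 to -0.08 over probe sets), and the main fit did not pair them. Whether the numbers stand for pairs cannot be settled by these correlations.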

Additional observations from a re-analysis of the deposited data

Results flagged for a closer look

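Within groups of 4 tumors, a single tumor far from the others was looked for in 73 named genes, 146 groups in all, and 5 groups had one. Chance alone gives about 1 in 20 groups. Among the 10 activation genes it was found once in 20 groups: Adam12 was 7.39 in preirradiated tumor 1 and 7.10 to 7.12 in the other preirradiated tumors. Without that tumor the Adam12 difference was 0.40. Stra6 was 8.87 in preirradiated tumor 4, against 9.15 to 9.18 in the others. In nonirradiated tumors, Adam19 was 8.30 in tumor 4 and 8.03 to 8.04 in the others. Itm2a was 7.15 in nonirradiated tumor 2 and 6.94 to 6.96 in the others. Mss51 was 5.48 in nonirradiated tumor 3 and 5.24 to 5.26 in the others.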

How the results depend on the processing

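Across 21 alternatives for each of the 10 genes, 182 of 210 differences kept their direction and their side of the study's filter. This share is raised by construction. Changing the expression limit, variance model, replicate block, probe sets per gene or change limit leaves each difference as it was, so direction could not turn. Fap, Thy1 and S100a4 were outside the filter from the outset. No gene passed the adjusted threshold in any alternative, the smallest adjusted p being 0.0879 (Srpx2, without preirradiated tumor 4), and 0 probe sets passed in any of the 18 fits. The median difference of the 10 genes was 0.37 without preirradiated tumors 1 and 3, 0.37 with the muscle mean as a covariate and 0.17 relative to the fibroblast markers, and 0.41 to 0.55 when 1 tumor was left out. The number past the study's filter was 4 at a change limit of 0.5, 1 relative to the fibroblast markers, and 5 to 7 when 1 tumor was left out. The number without overlap was 3 with each array centred on its median, which lost Lrrc15 and Grem1. It was 4 after a further quantile normalization and 0 relative to the fibroblast markers. When 1 tumor was left out it was 5 to 7, and leaving out a tumor can only keep or raise this number. Over all probe sets the study's filter was passed by 223, and by 102 with 1 probe set per gene, 438 at a change limit of 0.3 and 113 at 0.5. Leaving out 1 tumor gave 181 to 385, with 385 without preirradiated tumor 4 and 335 without preirradiated tumor 2. Array centring turned 170 higher and 53 lower into 121 higher and 70 lower. Pdpn missed the filter without any of 5 single tumors, down to 0.41 without preirradiated tumor 3. Cdh11 missed it without preirradiated tumor 3 (0.36) or nonirradiated tumor 2 (0.40) or 3 (0.42). S100a4 (-0.25 to 0.10 when 1 tumor was left out) reversed without preirradiated tumor 1 (0.02), preirradiated tumor 2 (0.10), nonirradiated tumor 2 (0.02) or both muscle-high tumors (0.01). Fap (-0.11) and Thy1 (-0.18) reversed relative to the fibroblast markers, which follows from the construction, since it lowers every difference by 0.31. For other reversals and lost calls the cause was not tested. With the replicate number as a block, 193 probe sets and 6 members passed the filter, Cdh11 (0.47, unadjusted p = 0.055 by limma) being lost. Averaging the probe sets of a gene was not run, since each member has 1.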
